A study of Mus musculus with 40 samples.

Results

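The last stretch of fetal development was examined by setting E18.5 mouse embryos, shortly before birth, against E15.5 embryos in the esophagus, the larynx and the trachea. The comparison used 12 of the 40 libraries of the series, namely 6 at E18.5 and 6 at E15.5, with 2 libraries for each organ and age. These 12 were chosen from the 30 libraries whose names end in a short code, and 6 further E15.5 libraries, whose names end in an index sequence, were not used. All embryos were untreated wild type FVB/N mice, and tissue was pooled from 10 animals at E18.5 and from 20 animals at E15.5. Poly-A RNA was sequenced in bulk, and a gene's level is given as its expected count, an estimate of the reads that came from it, divided by a size factor for its library (normalized count). Values are listed for esophagus 1 and 2, larynx 1 and 2, and trachea 1 and 2, in that order, wherever 6 of one age are given. The p-values measure only the spread between these libraries of pooled tissue.

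The esophagus is a muscular tube lined by stratified squamous epithelium, the trachea is an airway held open by cartilage rings and lined by ciliated and secretory cells, and the larynx combines cartilage, skeletal muscle and both kinds of epithelium. In late gestation the connective tissue of such organs is filled with collagen, elastic fibers and basement membrane. These proteins are made on the endoplasmic reticulum (ER), folded there with the help of chaperones and carried in coated vesicles to the Golgi apparatus and out of the cell.

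Depth overlapped between the ages, with 15758853 to 26378626 expected counts in a library at E18.5 and 14002503 to 22062957 at E15.5. In larynx and in trachea both E15.5 libraries were below both E18.5 libraries. The number of genes that reached a normalized count of 1 was 21626 to 23383 in the E18.5 libraries, 22547 and 22665 in the E15.5 esophagus, 24842 and 27916 in the E15.5 larynx and 25010 and 32141 in the E15.5 trachea. The second E15.5 libraries of larynx and trachea also held counts for 639 and 685 of 692 olfactory receptor genes, against 126 to 157 at E18.5 and 128 to 204 in the other E15.5 libraries. Some of these receptors have near-identical copies, between which the counting divides reads in every library, these 2 and the others alike. Whether genomic DNA added reads to these 2 libraries was not tested, and this bears on their number of detected genes and on values of low genes. The correlation of the paired libraries over 17243 genes was 0.957 to 0.975 in 5 groups and 0.858 in the E15.5 trachea. The share of mitochondrial ribosomal RNA was 21.8 to 28.4% at E18.5 and 19.3 to 32.2% at E15.5.

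**Figure D1:**
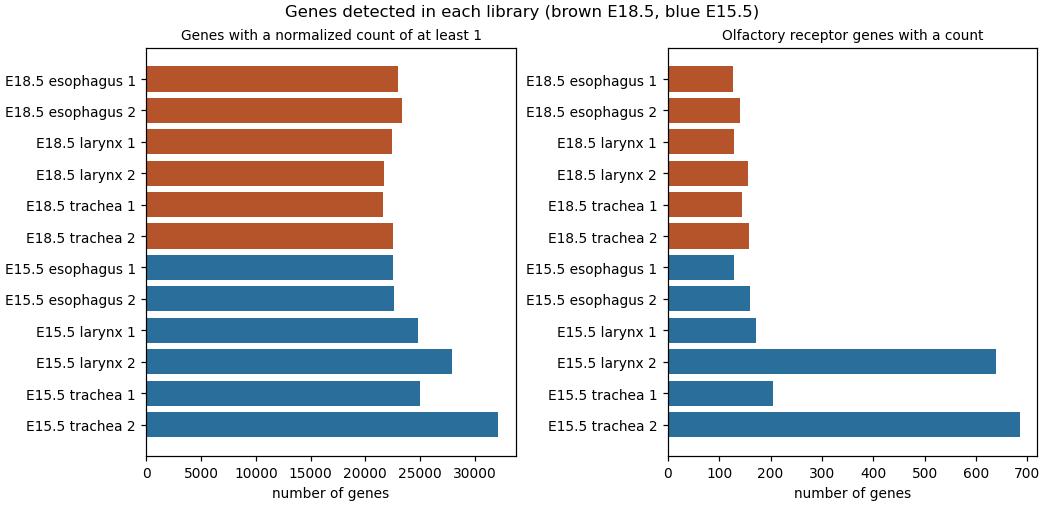
Bars give, for each of the 12 libraries, the number of genes that reached a normalized count of 1 (left) and the number of olfactory receptor genes with a count (right), with E18.5 in brown above E15.5 in blue. The second E15.5 trachea library reaches 32141 genes, and it and the second E15.5 larynx library stand apart with 685 and 639 olfactory receptor genes.

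Defining markers of each organ were compared with the labels, and none was confined to its organ. Krt4, a keratin of squamous epithelium, had 38658 and 77336 normalized counts in the E18.5 esophagus, against 26022 and 32179 at E15.5. It also had 15516 and 35042 in the E18.5 larynx and 16600.3 and 8225 in the E18.5 trachea. Nkx2-1, the transcription factor of the respiratory and thyroid lineages, had 72.4 and 61.5 in the E18.5 trachea, against 0 and 14.3 at E15.5. It was at 27.3 and 26.1 in the E18.5 esophagus and at 0 and 1.73 in the E18.5 larynx. Krt4 was at 2.3, Krt5, a keratin of basal cells, at 3.45 and Epcam, an adhesion protein of epithelia, at 9.2 in the first E15.5 trachea library, so that the defining epithelial markers of a trachea were at or near 0 there. Ckm, the creatine kinase of skeletal muscle, was at 117982 and 84096 in the E18.5 larynx, against 52411 and 41526 at E15.5. It was present in all 12 libraries, and at 74055 in the first E15.5 esophagus library it stood above both E15.5 larynx libraries.

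Markers of neighbouring tissues also differed between libraries of one organ. Col2a1, the collagen of cartilage, had 51248 and 21940.3 normalized counts in the E18.5 esophagus, against 434 and 896 at E15.5. Tg, the thyroid hormone precursor, had 70753 and 35394 in the E18.5 esophagus, against 31 and 20.3 at E15.5, and the sum over 13 thyroid genes ranged from 609 to 181759.9 at E18.5 and from 175 to 44358 at E15.5. Cartilage and thyroid genes thus stood high in the libraries labelled E18.5 esophagus. Rag1, which rearranges antigen receptor genes in thymocytes, reached 2568 in the second E15.5 trachea library and 7.4 to 55.2 in the other E15.5 libraries, and Ucp1, the uncoupling protein of brown fat, reached 25937 in the first. The part of neighbouring tissue in the results below was not tested, and in bulk tissue fewer cells of a type and less RNA in each cell cannot be told apart.

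The first question was which genes changed with age in all 3 organs alike. Of 30800 genes tested with organ as a term, 1185 (3.85%) passed at an adjusted p under 0.05 in edgeR's quasi-likelihood test. Of these, 686 (2.23%) were higher at E18.5 and 499 (1.62%) were lower. The median log2 fold change over all genes was -0.23, or -0.03 over protein-coding genes, and the split became 368 higher and 636 lower when size factors were taken from abundant protein-coding genes. Among the 686 higher genes, 685 had a positive change in each organ, with medians of 0.53 in the esophagus, 0.51 in the larynx and 0.66 in the trachea on the log2 scale. Among the 499 lower genes, 494 had a negative change in each organ, with medians of -0.76, -1.11 and -1.11. These signs were nearly fixed in advance, since the genes were chosen in the same libraries. With one mean for each organ and age, 0 of the 686 passed in the esophagus, 0 in the larynx and 157 in the trachea. Of the 499, 0, 5 and 82 passed. Whether the organs changed alike is not tested by the fit with organ as a term. The rises were small and in abundant transcripts, with a median of 0.58 on the log2 scale and a median level of 794 normalized counts, and 680 of them were protein-coding. The falls were larger in size, with a median of -1.02 and a median level of 125 normalized counts, and included 84 long noncoding RNAs and 55 unconfirmed transcripts (TEC). Calls went with level. Of 2414 genes with a mean over 1000 normalized counts 263 rose and 42 fell, and of 9031 genes from 100 to 1000, 409 rose and 228 fell. The counts for lists and families below were not matched for level. In 415 of the rises and 289 of the falls the 6 libraries of one age did not overlap the 6 of the other, beside 1.96% of all genes without overlap and higher, and 1.59% without overlap and lower.

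These counts depended on which libraries were used. With 1 library left out at a time, 287 genes (without the second E15.5 larynx) to 1817 genes (without the first E15.5 trachea) passed. Without the 2 libraries rich in olfactory receptor genes, 34 of the 686 and 49 of the 499 still passed, and with esophagus and larynx only 7 and 18 did. In both cases all 686 and all 499 kept the sign of their change. This was nearly fixed in advance, since the genes were chosen in libraries that include those still used. When libraries with a larger spread were given less weight in limma, 636 and 469 still passed. The lowest of the 12 libraries was the first E15.5 trachea for 247 of the higher genes, and the highest was the second E15.5 trachea for 173 of the lower genes.

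A number of structural genes of connective tissue rose. Of 40 fibroblast matrix genes, 18 rose and none fell, beside 2.23% of all genes that rose. Their median was 0.70 on the log2 scale beside -0.23 over all genes. The medians were 0.68 in the esophagus, 0.65 in the larynx and 0.87 in the trachea. Col5a1 (chr2:27776397-27929526 of GRCm39), the collagen that starts fibril assembly, had 13414, 10847, 18605, 17303, 12992 and 14963 normalized counts at E18.5, against 5162, 6886, 8765, 7163, 7169 and 7292 at E15.5. The 2 ages did not overlap, and the change was 1.04 ± 0.12 (log2, SE, edgeR adjusted p = 0.00362). Col6a2, a chain of the beaded microfibrils around cells, had 10611, 8985, 14543, 12041, 11060.1 and 11768 at E18.5, against 5437, 5168, 7691, 5785, 5376 and 5974 at E15.5, again without overlap (0.96 ± 0.11, adjusted p = 0.00362). Its partners Col6a1 and Col6a3 changed by 0.93 ± 0.12 and 0.86 ± 0.12. Col3a1, the most abundant of these, had a median of 113472 (82329 to 148405) at E18.5, against 64161 (48232 to 67804) at E15.5 (0.92 ± 0.17, adjusted p = 0.0187). Col1a1, the main collagen of bone and tendon, did not pass, with a median of 55596 (33960.4 to 94338) at E18.5 against 33414 (13502 to 62201) at E15.5 (0.89 ± 0.30, adjusted p = 0.111).

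Several genes of elastic fibers rose. Eln (chr5:134731445-134776322 of GRCm39), which encodes elastin itself, was the largest rise among abundant protein-coding genes whose ages did not overlap. It had 20940.3, 20986, 15915, 13319.5, 30627 and 32055 normalized counts at E18.5, against 6909, 8709.7, 13209, 8174, 2448 and 4909 at E15.5. The larynx libraries were the lowest at E18.5 and the highest at E15.5 was a larynx library, and the change of 1.64 ± 0.39 over the organs (adjusted p = 0.0387) was made of 1.42 in the esophagus, 0.45 in the larynx and 3.09 in the trachea. The difference of its change between organs did not pass the test described further on. Loxl1, the enzyme that cross-links elastin, had a median of 1253 (1049.8 to 1663) at E18.5, against 609 (287 to 832) at E15.5 (1.13 ± 0.22, adjusted p = 0.0219). Fibrillin genes Fbn1 and Fbn2, whose products form the scaffold of elastic fibers, changed by 0.97 ± 0.18 and 0.92 ± 0.23. The fibulin genes Fbln2 and Fbln5, which link elastin to that scaffold, changed by 1.04 ± 0.13 and 0.79 ± 0.17. Ltbp4, which holds latent transforming growth factor on the scaffold, changed by 1.17 ± 0.29. Tnxb, a tenascin of collagen-rich tissue, had a median of 7293 (5846 to 8744) at E18.5, against 3814 (2727 to 4598) at E15.5. Of the 40 matrix genes 5 still passed without the 2 libraries rich in olfactory receptor genes, Col5a1, Col6a2 and Fbln2 among them, with a median of 0.70, and Eln and Loxl1 did not (1.48, adjusted p = 0.183, and 1.17, adjusted p = 0.107). With esophagus and larynx only, 1 passed and the median was 0.69.

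**Figure D2:**
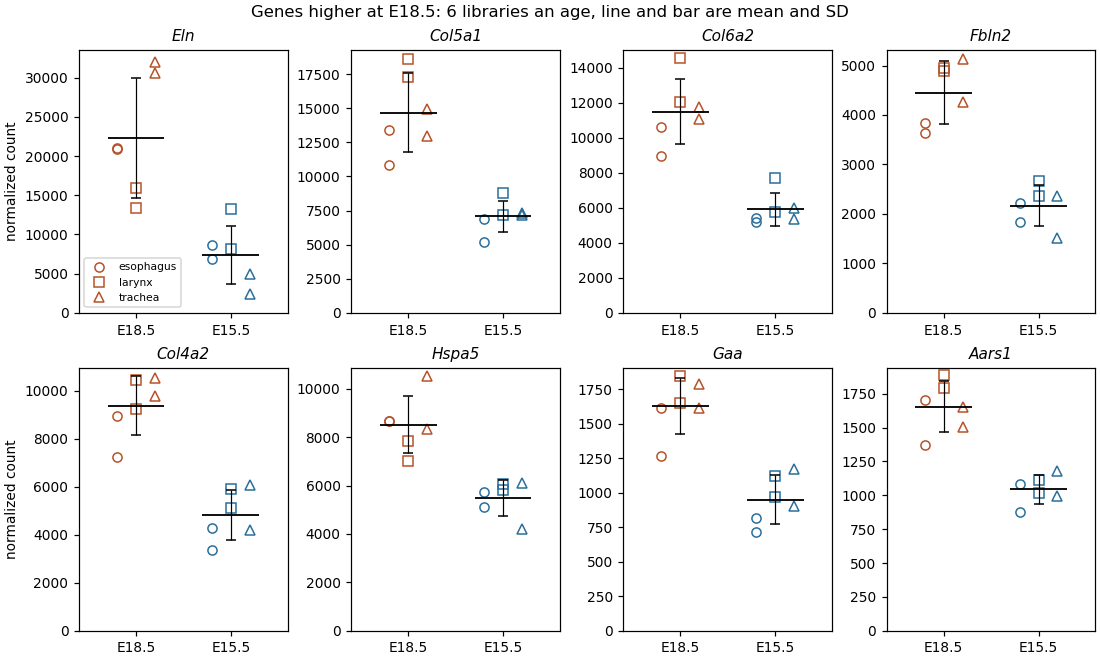
Normalized counts of 8 genes that rose are plotted for the 6 libraries of each age, E18.5 in brown left of E15.5 in blue, with circles for the esophagus, squares for the larynx and triangles for the trachea; the line and bar are mean and SD. In each panel the lowest E18.5 library lies above the highest E15.5 library, as for Gaa with 1267 against 1169.

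Basement membrane genes were a family collected after the values were seen. Of 26 genes, 12 rose and none fell, beside 2.23% of all genes that rose, and the median was 0.73. Col4a2, a chain of the collagen network of basement membranes, had a median of 9533 (7241 to 10555) at E18.5, against 4696 (3386 to 6063) at E15.5 (0.97 ± 0.13, adjusted p = 0.00439). Its neighbour Col4a1 changed by 0.92 ± 0.14, the laminin chain Lamb2 by 0.88 ± 0.13 and the proteoglycan gene Hspg2 by 0.83 ± 0.14. Col18a1, the source of endostatin, had a median of 2782 (2538 to 3210.1) at E18.5, against 1632 (1374 to 1755) at E15.5 (0.80 ± 0.09, adjusted p = 0.00276). Of the 26 genes 2 still passed without the 2 libraries rich in olfactory receptor genes, and with esophagus and larynx only none did in edgeR, where 16 were higher at an unadjusted p under 0.05 and the median was 0.54.

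Some genes of the secretory route rose. A family of 46 genes for ER chaperones, folding enzymes and ER-associated degradation was also collected after the values were seen. Of these, 15 rose and none fell, beside 2.23% of all genes that rose, with a median of 0.40. Hspa5, the main chaperone of the ER (BiP), had 8655, 8663, 7842, 7009, 10545 and 8317 normalized counts at E18.5, against 5099, 5717, 6044, 5829.5, 4185 and 6111 at E15.5, and the ages did not overlap (0.63 ± 0.14, adjusted p = 0.0293). Hyou1, which works with Hspa5, changed by 0.83 ± 0.13, and Os9, a lectin that hands misfolded proteins to degradation, by 0.93 ± 0.12. P4hb, the subunit shared by protein disulfide isomerase and collagen prolyl hydroxylase, had a median of 12079 (9892 to 14031) at E18.5, against 7097 (5369 to 8643) at E15.5 (0.76 ± 0.13, adjusted p = 0.0137). Hsp90b1 (GRP94) did not pass, with a median of 5701 (4657 to 8174) at E18.5 against 5599 (3821 to 6320.1) at E15.5 (0.17 ± 0.18, adjusted p = 0.556). Of the 46 genes 1 still passed without the 2 libraries rich in olfactory receptor genes, and with esophagus and larynx only none did in edgeR, where 19 were higher and 3 lower at an unadjusted p under 0.05.

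Genes for ER chaperones are known to carry the ER stress response element, through which they are induced when unfolded proteins gather. It was looked for after these rises were seen, as CCAAT, then 9 bases of any kind, then CCACG, on both strands of RefSeq promoters of 300 bases on GRCm38.p6. It was found in 39 of 32851 promoters (0.119%) and in 10 of 44 promoters (22.7%) of the 40 family genes matched. The 10 genes were Calr, Canx, Creld2, Derl3, Dnajc3, Ero1b, Hsp90b1, Hspa5, Pdia6 and Syvn1. Calr, Canx and Hspa5 rose and the other 7 did not pass the test, beside 15 of the 46 genes of the whole family that rose. As such genes are known to carry the element, its share in their promoters does not bear on the change with age. The windows of 3 genes that rose and of 2 that did not are given below, on the strand of the gene with the capitals marking both ends of the element, which reads ATTGG and CGTGG where it lies in reverse.
Hspa5 (chr2:34772020-34772048): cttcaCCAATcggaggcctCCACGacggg
Calr (chr8:84847070-84847098): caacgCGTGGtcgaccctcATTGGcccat
Canx (chr11:50325795-50325823): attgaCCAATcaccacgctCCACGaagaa
Hsp90b1 (chr10:86705633-86705661): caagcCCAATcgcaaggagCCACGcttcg
Pdia6 (chr12:17266486-17266514): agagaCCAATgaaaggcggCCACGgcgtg
The element occurs both in Hspa5, which rose, and in Hsp90b1 and Pdia6, which did not pass (Pdia6 0.40 ± 0.15, adjusted p = 0.15).

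The steps before and after folding were measured in 2 further families collected in the same way. For both, the share of all genes that rose was 2.23%. Of 31 genes of the translocon, signal recognition and oligosaccharyltransferase, 11 rose and none fell, with a median of 0.23. Sec61a1, the channel through which new proteins enter the ER, had a median of 3303 (3145 to 4305) at E18.5, against 2087 (1701 to 2423) at E15.5 (0.75 ± 0.11, adjusted p = 0.00588). Rpn1 and Ddost, subunits of the enzyme that attaches sugar chains, changed by 0.65 ± 0.11 and 0.69 ± 0.14. Of 29 genes for vesicle coats and KDEL receptors, 12 rose and none fell, with a median of 0.35, and Sec31a, of the coat of vesicles that leave the ER, changed by 0.65 ± 0.09. Neither family had a gene that passed in edgeR without the 2 libraries rich in olfactory receptor genes, where 12 and 18 genes were higher at an unadjusted p under 0.05 and the medians were 0.21 and 0.33.

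Some lysosomal enzymes and aminoacyl-tRNA synthetases also rose, beside 2.23% of all genes. Of 45 lysosomal genes, 18 rose and none fell, with a median of 0.43 and of 0.41 in each organ. Gaa, which breaks down glycogen, had 1613, 1267, 1848, 1653, 1787 and 1614 normalized counts at E18.5, against 820.1, 713, 1124, 968, 1169 and 907 at E15.5 (0.79 ± 0.11, adjusted p = 0.00439). The second esophagus library was the lowest of each age, and the ages did not overlap. Grn, the progranulin gene, changed by 0.78 ± 0.10. Of 20 cytosolic aminoacyl-tRNA synthetases, which charge transfer RNA with amino acids, 9 rose and none fell, with a median of 0.37. Aars1, for alanine, had a median of 1680.0 (1373 to 1891) at E18.5, against 1051 (875 to 1178) at E15.5 (0.66 ± 0.10, adjusted p = 0.00712). With size factors from abundant genes, 10 lysosomal genes and 5 synthetases rose, and without the 2 libraries rich in olfactory receptor genes 2 and 0 did in edgeR, where 15 synthetases were higher at an unadjusted p under 0.05.

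The other largest rises without overlap were of mixed kinds. Mansc1, a membrane protein gene, had a median of 149 (117 to 205) at E18.5, against 65.2 (25.3 to 92.5) at E15.5 (1.37 ± 0.29). H4c3 is one of many histone genes that are nearly alike, and its median of 728 (607 to 918) at E18.5, against 248 (163 to 570.3) at E15.5, is uncertain for that reason. Mstn, the muscle growth inhibitor myostatin, had a median of 1362 (1029 to 1819.9) at E18.5, against 669 (185 to 984) at E15.5 (1.15 ± 0.28). Grem1, which blocks bone morphogenetic proteins, had a median of 324 (225 to 387) at E18.5, against 144 (100.0 to 219.5) at E15.5 (1.11 ± 0.20). Avpr1a, a vasopressin receptor, Tacc2, a protein of the spindle, Jund, a subunit of the transcription factor AP-1, and Bcam, a laminin receptor, rose by 1.07 to 1.16 on the log2 scale. All 8 lost their call without the 2 libraries rich in olfactory receptor genes.

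The falls held a group with a shared role in splicing. Of 24 genes for SR proteins, which bind exons, and for the kinases and cyclins that act with them, 12 fell and none rose. Over all genes 1.62% fell. The median of the family was -0.43, and it was collected after the values were seen. Ccnl2 (chr4:155896669-155909004 of GRCm39), a cyclin of splicing speckles, had 457, 484, 459, 543, 519 and 597 normalized counts at E18.5, against 836, 1045, 1224, 1365, 1425 and 1282 at E15.5. The ages lay far apart, and the change was -1.22 ± 0.10 (edgeR adjusted p = 0.00081). Ccnl1, its relative, had 214, 268, 243, 206, 215 and 293 at E18.5, against 474, 567, 562, 664, 569 and 673 at E15.5 (-1.28 ± 0.12, adjusted p = 0.00152). Each E15.5 library was above every E18.5 library for both cyclins. Clk1 and Clk4, kinases that phosphorylate SR proteins, changed by -1.14 ± 0.12 and -0.90 ± 0.10, and Luc7l3, a protein of the U1 particle, by -1.09 ± 0.10.

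Unlike most calls, some of these held in fewer libraries. Of the 24 genes, 6 fell without the 2 libraries rich in olfactory receptor genes and 5 with esophagus and larynx only, where Ccnl1, Ccnl2, Clk1, Clk4 and Luc7l3 all passed with changes of -1.29, -1.19, -1.23, -1.01 and -1.13. Rsrp1, an arginine and serine rich protein gene outside the family, had a median of 497 (375 to 619) at E18.5, against 1311 (1044 to 1691) at E15.5 (-1.44 ± 0.15, adjusted p = 0.00218). Tia1, a splicing regulator that binds U-rich RNA, changed by -1.01 ± 0.12. Core particles of the spliceosome were mixed. Of 29 snRNP genes 5 rose and 2 fell, beside 2.23% and 1.62% of all genes. Snrnp200, a helicase of the U5 particle, changed by 0.43 ± 0.08. Of 20 hnRNP genes 4 fell and none rose, with a median of -0.10, and with TMM factors 2 rose and 2 fell.

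Long noncoding RNAs had 84 falls and 1 rise among 5300 tested. The share that fell, 1.58%, was close to the 1.62% of all genes. Their median change was -0.83 on the log2 scale, that of 2685 unconfirmed transcripts -0.99 and that of all genes with a mean under 10 normalized counts -1.06, whereas over genes with a mean above 1000 it was 0.17. These medians moved to -0.41, -0.59 and -0.43 without the 2 libraries rich in olfactory receptor genes, beside -0.08 over all genes. Several abundant named RNAs were among the falls. Meg3 (chr12:109506877-109538165 of GRCm39), a maternally expressed imprinted RNA, had 4281, 3458, 3851, 4168, 3938 and 3652 normalized counts at E18.5, against 12156, 6076, 17752, 18401, 12742 and 12025 at E15.5. The E18.5 values were nearly equal in the 3 organs, while the second E15.5 esophagus library was the lowest of its age, and the change was -1.71 ± 0.19 (adjusted p = 0.00343). Firre, a nuclear RNA from the X chromosome, had a median of 171 (94.1 to 225) at E18.5, against 469.7 (376 to 569.9) at E15.5 (-1.49 ± 0.18, adjusted p = 0.00362). Firre passed with esophagus and larynx only at -1.64, and Meg3 did not there (-1.71, adjusted p = 0.0604).

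Xist, the RNA that coats the inactive X chromosome and so depends on the sexes in a pool, had a median of 2816 (995 to 3641) at E18.5, against 10209 (3593 to 14702) at E15.5 (-1.83 ± 0.31, adjusted p = 0.0116). The 2 ages overlapped narrowly. Of 5 sex-linked genes tested 1 fell and none rose, with a median of -0.15, and the labels do not give the sexes in the pools. Neat1, the scaffold of paraspeckles, changed by -1.48 ± 0.35, and Kcnq1ot1, an imprinted antisense RNA, by -0.92 ± 0.20. No source used here states whether strand entered the counting, and without strand an antisense RNA and its partner cannot be told apart. H19, another imprinted RNA, did not pass, with a median of 202972 (157167 to 331295) at E18.5 against 175332 (95008 to 288830.0) at E15.5. Of 17 host genes of small nucleolar RNAs, collected after the values were seen, 6 fell and none rose, with Snhg12 at -0.68 ± 0.15 and Gas5 at -0.56 ± 0.13, and none passed in edgeR without the 2 libraries rich in olfactory receptor genes, where 9 were lower at an unadjusted p under 0.05. Among 13 mitochondrial messenger RNAs 2 fell and none rose, beside 1.62% of all genes that fell. They were mt-Nd5, which fell by 1.41 (SE 0.23), and mt-Nd4, which fell by 1.15 (SE 0.24) on the log2 scale, both subunits of respiratory complex I. The list as a whole did not fall, as 9 of the 13 had a positive change and the median was 0.13.

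**Figure D3:**
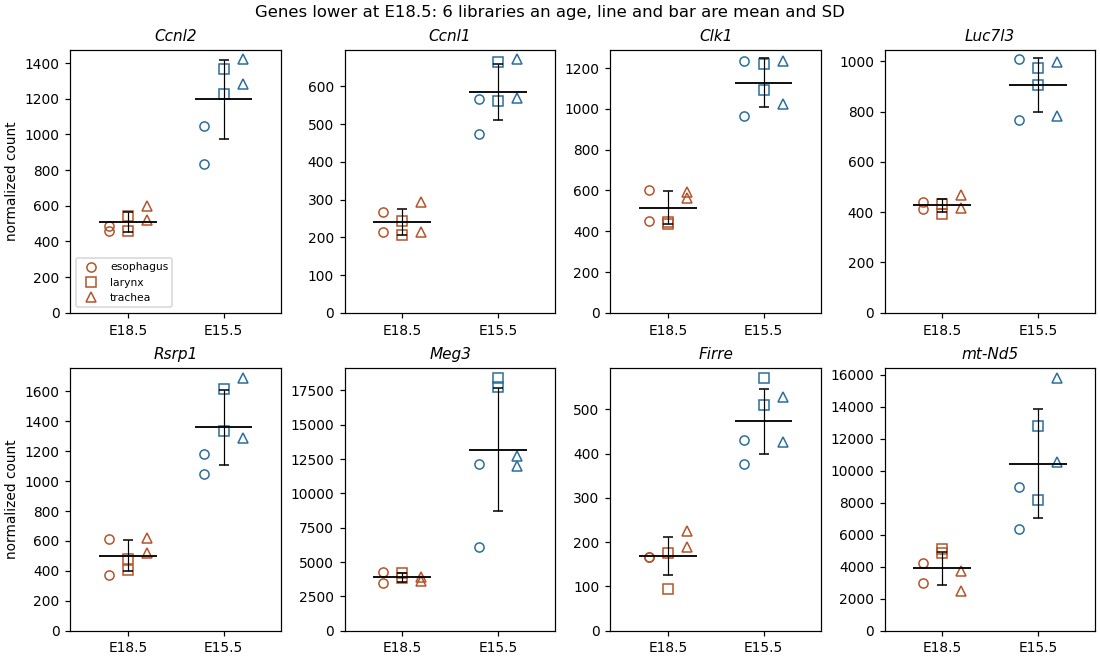
Normalized counts of 8 genes that fell are plotted for the 6 libraries of each age, E18.5 in brown left of E15.5 in blue, with the organs by symbol and the mean and SD as line and bar. The highest E18.5 library lies below the lowest E15.5 library in each panel, as for Ccnl2 with 597 against 836.

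The largest falls without overlap included genes of liver and fat. Alb, the albumin of liver cells, had 5.69, 5.93, 0, 1.73, 0 and 0 normalized counts at E18.5, against 1479, 189, 9.23, 67.8, 143 and 386 at E15.5 (-7.43 ± 0.89, adjusted p = 0.00362). Of 17 hepatocyte genes 3 fell, Fgb and Ahsg beside Alb, and none rose. Over all genes 1.62% fell. Fgb, a chain of fibrinogen, was at or under 0.883 in every E18.5 library, against 1.03 to 183 at E15.5. Of 20 adipocyte genes 5 fell and none rose, beside the same 1.62%, with a median of -2.33 beside -0.23 over all genes. Lep, the fat hormone leptin, had 7.96, 1.19, 0, 0, 2.65 and 0.691 at E18.5, against 34.9, 24.4, 23.6, 32.1, 31 and 41.9 at E15.5 (-4.09 ± 0.66, adjusted p = 0.00908). Retn, for resistin, was between 0 and 4.55 at E18.5, against 8.21 to 336 at E15.5. These genes stood near 0 at E18.5. At E15.5 Alb, Fgb and Retn varied widely, whereas Lep lay between 23.6 and 41.9. Of the hepatocyte and adipocyte genes that fell, 2 and 1 still passed without the 2 libraries rich in olfactory receptor genes. With esophagus and larynx only none did in edgeR, where 10 hepatocyte and 12 adipocyte genes were lower at an unadjusted p under 0.05. The summed levels of both lists overlapped between the ages. The hepatocyte sum was 725 to 5109.9 at E18.5, against 859.6 to 4605 at E15.5. The adipocyte sum was 7261 to 32640.0 at E18.5, against 12402 to 159687 at E15.5.

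The other largest falls were of varied kinds. Rgs11, a regulator of G protein signalling, had 7.96, 13, 10, 4.32, 9.71 and 14.5 normalized counts at E18.5, against 55.5, 49.5, 56.4, 60.4, 62.1 and 37.5 at E15.5. The E15.5 libraries of all organs were close to each other, and the change was -2.43 ± 0.31 (adjusted p = 0.00365). It also passed with esophagus and larynx only, at -2.67. Nalcn, a sodium leak channel, had a median of 35.3 (14.7 to 41.5) at E18.5, against 119 (43.1 to 308) at E15.5 (-2.10 ± 0.32). Lgals4, a galectin of gut epithelium, Myh7b, a myosin heavy chain, Napb, a factor of vesicle fusion, Ppcdc, an enzyme of coenzyme A synthesis, and Dzank1 and Gm3411 fell by 1.57 to 3.08 on the log2 scale. Myh7b reads may be shared with other myosin genes.

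Most genes that set these organs apart did not pass over the 3 organs. None of 50 proliferation genes passed in edgeR or DESeq2, with a median of -0.08 and 1 gene lower at an unadjusted p under 0.05. None of 40 motile axoneme genes passed in either tool, and none had an unadjusted p under 0.05. Of 18 basal epithelium genes none passed in edgeR, 8 were higher at an unadjusted p under 0.05 and 6 rose in DESeq2, and the median was 0.68. Of 47 squamous differentiation genes 1 rose, Klf4, a transcription factor of barrier epithelium, which changed by 0.71 ± 0.17, although the median of the list was 1.26. The list of 54 skeletal contractile genes held 1 fall, Myh7b, with a median of 0.36. Of the 52 lists, 20 had no member that passed, 22 had at least 1 that rose and 12 at least 1 that fell.

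**Figure D4:**
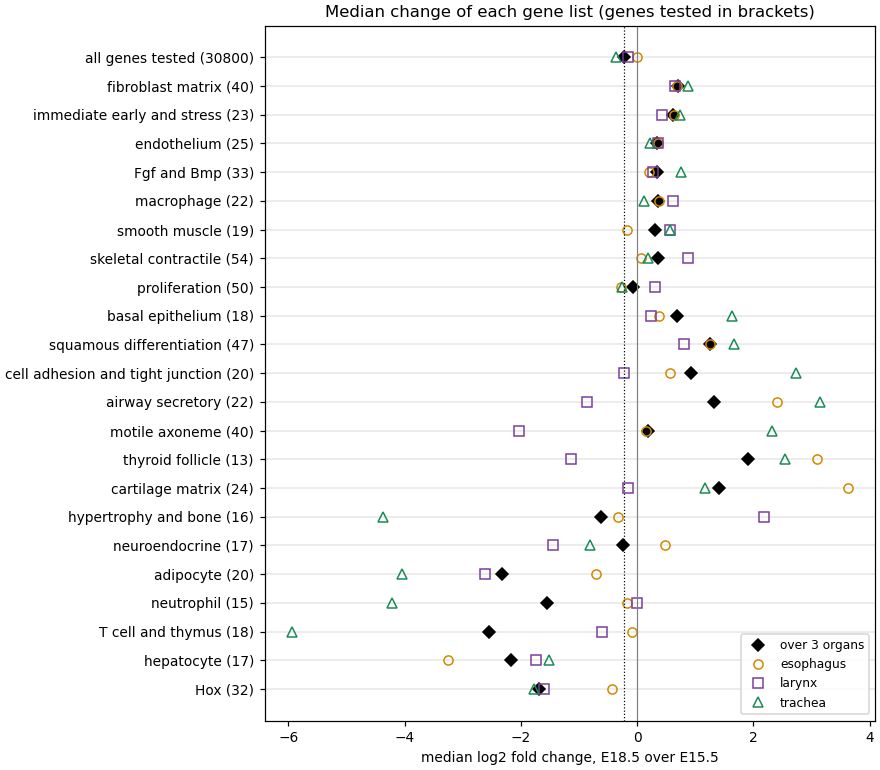
Each row gives the median log2 fold change of E18.5 over E15.5 for one gene list, with the number of genes tested in brackets, as a black diamond over the 3 organs and as open symbols in the esophagus, larynx and trachea; the dotted line is the median of all genes, -0.23. The fibroblast matrix list lies at 0.65 to 0.87 in every organ, whereas the motile axoneme list lies at -2.03 in the larynx and 2.32 in the trachea.

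The second question was what changed within each organ. With one mean for each organ and age, the esophagus had 1 gene higher (0.00325% of 30800) and none lower, with 811 lower at an unadjusted p under 0.05 in edgeR and 88 lower in DESeq2. The gene was Chad, which encodes the cartilage protein chondroadherin, and it had 603 and 376 normalized counts at E18.5, against 38.7 and 46.1 at E15.5 (3.51 ± 0.37, adjusted p = 0.0377). The median of 24 cartilage matrix genes in the esophagus was 3.62. Their summed level was 108003 and 48531 at E18.5, against 5254 and 8054 at E15.5, so both E18.5 libraries were far above both E15.5 ones. Chad lost its call without either E15.5 esophagus library, at 3.40 and 3.66, without the first E18.5 esophagus library, at 3.13, and without either E18.5 trachea library, at 3.51.

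In the larynx 9 genes were lower at E18.5 (0.0292%), and none was higher in edgeR, with 1321 higher at an unadjusted p under 0.05 and 307 higher in DESeq2. The 3 largest falls were genes of neuroendocrine and C cells. Calca, which encodes calcitonin and its related peptide, had 7.01 and 15.6 normalized counts at E18.5, against 427 and 382 at E15.5 (-5.13 ± 0.61, adjusted p = 0.0256). Pcsk1, which cleaves prohormones, changed by -3.81 ± 0.45, and Scg2, a granule protein, by -3.29 ± 0.35. The calcitonin gene marks C cells of the thyroid as well as neuroendocrine cells of the airway, and Tg was at 391 and 12146 in the E18.5 larynx, against 43447 and 38510.0 at E15.5. The other 6, with their log2 changes for all but Firre, were Meg3 (-2.17), Gm49759 (-2.01), Firre, Selenbp1 (-1.65), Zfp949 (-1.61) and Ccnl2 (-1.37). In edgeR no gene passed in the larynx without the second E15.5 larynx library, or without any one of the 6 E18.5 libraries, and 1 passed without the first E15.5 larynx library. By contrast, 1391 passed without the first and 422 without the second E15.5 trachea library. Of 40 motile axoneme genes, of which none passed in the larynx in edgeR, 28 were lower at an unadjusted p under 0.05 and 3 fell in DESeq2, and 35 fell without the first E15.5 trachea library.

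The trachea had 778 calls (2.53%), with 483 genes higher (1.57%) and 295 lower (0.958%). No gene passed in edgeR without either E18.5 trachea library or with the 4 trachea libraries alone, and leaving out the other libraries in turn gave 137 (without the second E15.5 larynx) to 3698 (without the second E15.5 trachea). In limma with quality weights 82 passed in the trachea and 383 in the larynx, so the order of these organs by number of calls turned round. Myh4, a fast myosin heavy chain, was the largest rise named, at 4.83 ± 0.98, and epithelial genes followed it. Of 20 adhesion and tight junction genes 6 rose, with a median of 2.73 beside -0.36 over all genes in the trachea. Cldn3, a claudin of tight junctions, had 657 and 638 normalized counts at E18.5, against 1.15 and 78.2 at E15.5 (4.01 ± 0.84, adjusted p = 0.0394). Of 22 airway secretory genes 5 rose, with a median of 3.15. Pigr, which carries immunoglobulin A across epithelium, had 53.8 and 89.9 at E18.5, against 0 and 5.51 at E15.5 (4.63 ± 1.07, adjusted p = 0.0479). Fcgbp, a mucus protein, had 668 and 2021 at E18.5, against 8.05 and 108 at E15.5, and Clca1, another secreted mucus protein, had 186 and 289.6, against 0 and 20.9. Krt75, a keratin, changed by 4.46 ± 0.92. In each of these genes the first E15.5 trachea library, in which the epithelial markers were at or near 0, was the lower of its pair. Without it the medians were 1.91 for the adhesion list and 2.18 for the secretory list, and 17 and 18 genes rose.

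Of 16 genes of bone and cartilage maturation 8 fell in the trachea, with a median of -4.38. Over all genes 0.958% fell and 1.57% rose there, which stands beside each list of this paragraph. Col10a1, the collagen of hypertrophic chondrocytes, had 74.1 and 51.8 normalized counts at E18.5, against 6106 and 7552 at E15.5 (-6.76 ± 0.63, adjusted p = 0.00521). Mmp13, which degrades cartilage collagen, had 47.7 and 21.4, against 2017 and 912, and Spp1, the bone protein osteopontin, had 243 and 147, against 10503 and 4325. Both E15.5 trachea libraries were far above both E18.5 ones. The sum over the list was 38497 and 20884 in the E15.5 trachea, and 22947 and 18028 in the E18.5 larynx, and it was 734 to 4867 in the other 8 libraries. Without the first or the second E15.5 trachea library, 14 or 15 of the 16 fell. Of 15 neutrophil genes 7 fell and 1 rose, and of 20 adipocyte genes 8 fell. The summed level of the neutrophil list went the other way, with 5589 and 12247 in the E18.5 trachea against 2185 and 1774 at E15.5. Of 18 T cell and thymus genes 4 fell, 16 without the first and 1 without the second E15.5 trachea library, in which Rag1 was at 2568.

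The largest falls in the trachea were of genes with no annotation in the files used here. ENSMUSG00000096385 and ENSMUSG00000095547 had changes of -17.86 and -16.30 on the log2 scale, which depend on the prior count of the fit. ENSMUSG00000096385 had 0 and 0 normalized counts in the E18.5 trachea, against 358 and 57944 at E15.5, and reached 8927 in the second E15.5 larynx library. ENSMUSG00000095547 had 0 and 3.46 in the E18.5 trachea, against 1735 and 325548 at E15.5, and reached 40686 there. The highest values of both were thus in the libraries rich in olfactory receptor genes. Xkrx, a gene of the Xk membrane protein family, had 2.65 and 0.691 normalized counts at E18.5, against 67.8 and 9317 at E15.5, and also reached 1346 in the second E15.5 larynx library.

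The third question was whether the change with age differed between organs. A joint test of both interaction terms called 14 genes (0.0455%). Between trachea and esophagus no gene differed in edgeR, with 2440 at an unadjusted p under 0.05 and 98 in DESeq2. Larynx minus esophagus called 6, all lower (0.0195%), and larynx minus trachea called 78 (0.253%), 11 higher (0.0357%) and 67 lower (0.218%). Selenbp1, which encodes a selenium-binding protein, had 1669 and 1845 normalized counts in the E18.5 esophagus against 1419 and 1583 at E15.5, 458 and 561 in the E18.5 larynx against 1734 and 1463 at E15.5, and 3899 and 3761 in the E18.5 trachea against 581 and 867 at E15.5. It was thus lower with age in the larynx, higher in the trachea and little changed in the esophagus (joint adjusted p = 0.00509 in edgeR).

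Calca differed likewise, with 109 and 97.3 normalized counts in the E18.5 esophagus against 9.04 and 0.678 at E15.5, and 214 and 279 in the E18.5 trachea against 198 and 106 at E15.5, beside its fall in the larynx (joint adjusted p = 0.00681). Col10a1 went the other way in larynx and trachea, with 9624 and 2428 in the E18.5 larynx against 2000.2 and 1239.7 at E15.5 (1.89 ± 0.50, adjusted p = 0.236 in the larynx alone), and fell in the trachea as given above. Sall1, a zinc finger transcription factor, had 142 and 85.4 in the E18.5 esophagus against 6.46 and 10.2 at E15.5, 7.01 and 23.3 in the E18.5 larynx against 153 and 139 at E15.5, and 374 and 232 in the E18.5 trachea against 59.8 and 104 at E15.5. Thyroid genes followed the same order of organs, with list medians of 3.10 in the esophagus, -1.14 in the larynx and 2.54 in the trachea. The difference was not called for Tg (joint adjusted p = 0.257). Larynx minus trachea was highest for Col10a1, Mmp13, Spp1 and Mmp9 and lowest for Sftpb, Kng2, Mybphl, Clca1 and Ager, of which Sftpb and Ager are lung genes. Without the second E15.5 larynx library 2 genes passed the joint test, and without the second E15.5 trachea library 1599 did.

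**Figure D5:**
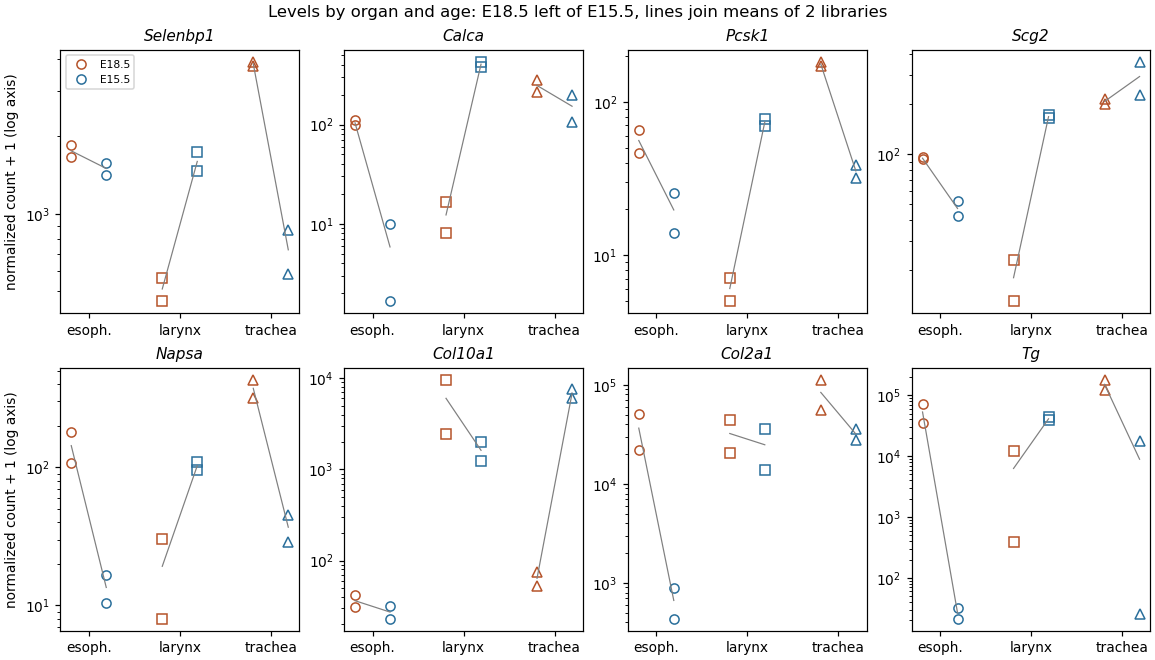
Normalized counts plus 1 on a log axis are shown for 8 genes in the esophagus, larynx and trachea, with both E18.5 libraries in brown left of both E15.5 libraries in blue and a line between the means. Selenbp1, Calca, Pcsk1, Scg2, Napsa and Col10a1 passed the joint test, with Selenbp1 at 3899 and 3761 in the E18.5 trachea against 581 and 867 at E15.5; Col2a1 and Tg did not pass it.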

How the data were processed

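RNA of 6 E18.5 and 6 E15.5 libraries was analysed. The submitters' processing notes name FastQC for read quality, Bowtie2 2.4.2 and RSEM 1.3.3 on GRCm39 for alignment and counting by the authors, and the deposited values are expected counts per gene, not normalized, of 53647 identifiers. RSEM divides reads that match several genes, so counts of near-identical copies are uncertain. Symbols came from the GENCODE annotation of GRCm39 (52610 matched, 49 symbols shared by several identifiers) and promoter sequences from RefSeq (GRCm38.p6).

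Expected counts were rounded, normalized with RLE factors and kept where at least 2 of 12 libraries had a normalized count of at least 1. edgeR 4.0.16 (R 4.3.3) tested age with organ as a term (8 residual degrees of freedom), and, with one mean per organ and age (6 residual degrees of freedom), age in each organ and both interaction terms jointly, with Benjamini-Hochberg adjustment over all genes and a threshold of 0.05. Scripts were tested on simulated data. The replicate numbers of the labels were checked for pairing between the ages and used as a block as an alternative. Pairing between organs of one age was not checked.

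The members, the 52 lists (1105 genes) and the tests were chosen with earlier results of these data known, and the 13 families after the values were seen, so no list was tested. Named genes were the 10 largest rises and falls over the organs without overlap among protein-coding genes with a mean of at least 50 in the higher age, the 5 largest in each organ or interaction and direction, and the members of described lists that passed and had the largest change or level, or that define the list. Alternatives were TMM factors, factors from abundant protein-coding genes, other filters, the spread of all 30 short-code libraries, one organ alone, an equal-weight average of organs, libraries left out, and DESeq2 1.42.0. limma 3.58.1 voom with quality weights, and counts by list and gene type without doubted libraries, were added after seeing the data. Index libraries were not used. Some results are not reported here.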

Additional observations from a re-analysis of the deposited data

Results flagged for a closer look

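The change with age differed between organs for 14 genes in edgeR's joint test of both interaction terms, adjusted over 30800 genes. Selenbp1 had an adjusted p of 0.00509. Col10a1, Pcsk1, Calca and Myo5c each had 0.00681. Myo5c, a myosin motor of secretory epithelium, had 505 and 524 normalized counts in the E18.5 esophagus against 452 and 536 at E15.5, 196 and 262 in the E18.5 larynx against 571 and 603 at E15.5, and 709.6 and 769 in the E18.5 trachea against 201 and 256 at E15.5. Sall1 and Scg2 each had an adjusted p of 0.0244, and Napsa had 0.0411. Scg2 had 92.1 and 94.9 in the E18.5 esophagus against 41.3 and 50.9 at E15.5, 22 and 12.1 in the E18.5 larynx against 164 and 170.2 at E15.5, and 199 and 214 in the E18.5 trachea against 358 and 226 at E15.5. Selenbp2, AU021092, Cytl1, Slc16a11 and Sorl1 each had 0.0486. Of the 14 genes, 12 were lower in the change of the larynx than in that of the trachea, and Col10a1 was higher.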

How the results depend on the processing

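Counts of genes called moved with the processing. Over the organs, where 1185 passed, filterByExpr gave 1939 (1086 higher, 853 lower), no filter 3970 (1827 and 2143), DESeq2 3674 (1802 and 1872), limma voom with quality weights 1919 (935 lower), and an equal-weight average of organs 791 lower. Factors from abundant genes gave 368 higher and 636 lower against 686 and 499. Without the 2 libraries rich in olfactory receptor genes 86 passed (37 and 49), and with esophagus and larynx only 25 (7 and 18). Leaving out 1 library at a time gave 287 (without E15.5 larynx 2) to 1817 (without E15.5 trachea 1), or 175 to 828 higher and 112 to 989 lower.

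The esophagus, with 1 gene, had 0 with filterByExpr, with protein-coding genes only, with its own 4 libraries and in limma, 649 with no filter, 30 with the spread of 30 libraries, 129 without the 2 libraries and 358 in DESeq2, and 0 to 490 with 1 library left out. The larynx, with 9, had 5 with TMM, 18 with factors from abundant genes, 4 with filterByExpr, 1559 with no filter, 26 with its own libraries, 55 without the 2 libraries, 383 in limma and 794 in DESeq2, and 0 to 1391 with 1 left out. The trachea, with 778, had 4258 with no filter, 1740 with the spread of 30 libraries, 0 with its own 4 libraries, 3415 without the 2 libraries, 82 in limma and 3348 in DESeq2, and 0 (without E18.5 trachea 1) to 3698 (without E15.5 trachea 2) with 1 left out. The joint test, with 14, had 5 with filterByExpr, 2452 with no filter, 7 with protein-coding genes only, 1585 without the 2 libraries and 673 in DESeq2, and 2 to 1599 with 1 left out. The causes were not tested.

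With the replicate number as a block, 520 passed over the organs (331 higher, 189 lower), 31 in the esophagus, 30 in the larynx, 1285 in the trachea and 91 in the joint test. Deviations of E18.5 and E15.5 libraries of one organ with the same number correlated at 0.0728 in the esophagus, 0.0901 in the larynx and -0.0389 in the trachea over 17244 genes. The numbers were therefore not taken as pairs between the ages. Whether libraries of different organs at one age came from the same animals is not stated in the labels and was not checked. The fits treat these libraries as independent. Of 36 results on single genes none reversed under any alternative run, but these genes were chosen for large changes in the same libraries. The block lost 7 of the 36 calls, limma 10 and DESeq2 0, leaving out the 2 libraries lost 17, and esophagus and larynx only lost 19 of 20. With 1 library left out, 22 to 30 calls were lost without an E18.5 library (30 without E18.5 trachea 2, 28 without E18.5 trachea 1, 27 without E18.5 esophagus 2), 27 without E15.5 larynx 2, and 0 to 13 without another E15.5 library. With 2 libraries an organ and age, each change within an organ borrows its spread from the other groups.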

Other observations

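Gene groups with a few members called, none of them tested as a group, were mostly signalling and vascular genes. Of 25 endothelial genes 6 rose and 2 fell, beside 2.23% and 1.62% of all genes. Flt4, the receptor of lymphatic vessels, had a median of 602 (476 to 868) normalized counts at E18.5, against 329 (219.6 to 475) at E15.5 (1.01 ± 0.20, edgeR adjusted p = 0.0213). Plvap, which bridges the pores of capillaries, changed by 0.75 ± 0.15, and Pecam1, an adhesion protein of all endothelium, by 0.47 ± 0.11. Egfl7, a factor secreted by endothelium, went the other way, with a median of 372 (293 to 419.6) at E18.5 against 654 (555 to 812) at E15.5 (-0.85 ± 0.12, adjusted p = 0.00588). Without the 2 libraries rich in olfactory receptor genes none of these rises passed in edgeR, where 8 of the 25 were higher at an unadjusted p under 0.05, and Egfl7 still did (-0.87, adjusted p = 0.0355).

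Of 33 genes of fibroblast growth factor and bone morphogenetic protein signalling, all 33 had a positive change and 5 rose. Over all genes 11156 of 30800 had a positive change and 2.23% rose. Bmp2, a ligand, had a median of 128 (120.1 to 223) at E18.5, against 76.1 (63.3 to 96.2) at E15.5 (0.93 ± 0.19, edgeR adjusted p = 0.0233). Of 23 immediate early and stress genes 7 rose, beside the same 2.23% of all genes. With factors from abundant genes 3 rose, and without the 2 libraries rich in olfactory receptor genes 1 did. Of 32 Hox genes 4 fell and none rose, beside 1.62% of all genes that fell. Their median was -1.69, beside -0.23 over all genes and -1.06 over genes with a mean under 10 normalized counts. Hoxc4 had 2.27, 7.12, 0, 0, 10.6 and 11.1 normalized counts at E18.5, against 62, 21, 6.15, 6.17, 63.2 and 17.6 at E15.5, and only 1 of the 4 passed without the 2 libraries rich in olfactory receptor genes. Dlk1, an imprinted growth regulator, had a median of 6748 (5413 to 11655) at E18.5, against 4240.1 (3264 to 6012) at E15.5 (0.72 ± 0.16, adjusted p = 0.0341), while its neighbour Meg3 fell.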
